A study of Mus musculus with 12 samples.

Results

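The 10 genes described here are known from the cellular response to low oxygen or stand beside it: the transcription factor subunits Hif1a and Epas1, the oxygen sensor Egln3, and the targets Vegfa, Hk2, Angptl4, Car9, Car12, Ndrg1 and Bnip3. They were chosen by name, with earlier results of these peak lists known, and all 10 are among the 11548 genes with a peak in any list. Which lists hold a peak of Angptl4 was part of what made the choice, so presence of peaks is a description here and was not tested. The study mapped N6-methyladenosine (m6A), the commonest internal modification of mRNA, by antibody pull-down and sequencing (MeRIP-seq) in mouse colon. The TNBS group was 3 male wild-type C57BL/6J mice aged 6 to 8 weeks and weighing 20 to 22 g, given 5% w/v 2,4,6-trinitrobenzenesulfonic acid into the colon through the anus. This hapten provokes colitis and is used as a model of Crohn's disease. The normal group was 3 male wild-type mice of the same strain, age and weight under normal feeding. Each mouse gave an immunoprecipitated and an input library, and the authors deposited 1 list of peaks in mRNA per mouse. FTO, which the title mentions, erases m6A, and the question put to these genes is where their transcripts had m6A peaks in TNBS and in normal colon.

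Cells sense oxygen through prolyl hydroxylases such as Egln3, which mark the HIF alpha subunits Hif1a and Epas1 for destruction through the von Hippel-Lindau protein. When oxygen is short the alpha subunits persist, pair with Arnt and bind a short motif called the hypoxia response element in their target genes. The colon lining lies next to an oxygen-poor lumen, and its surface epithelium is known for low oxygen even in health, while inflamed mucosa becomes more hypoxic. Angptl4 is a secreted inhibitor of lipoprotein lipase that is induced both by HIF and by the PPAR fatty acid receptors. m6A in mRNA is read by YTH proteins and lies mostly near stop codons and in long exons.

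The lists held 18752, 10971 and 19285 peaks in TNBS 1, 2 and 3, and 16488, 16324 and 13992 in normal 1, 2 and 3. Genes with a peak numbered 8619 ± 1503 per TNBS list and 8688 ± 468 per normal list (SD, n = 3 each), and an exact permutation test of the difference, two-sided, gave p = 1. TNBS 2 was the shortest list, with 6884 genes. TNBS 1 and TNBS 3 listed 3 peaks each on chromosome Y, in Erdr1 and Gm21857, and TNBS 2 listed 24, against 18, 17 and 17 in the normal lists, although the labels call all mice male. By the authors' own false discovery rate the peaks are weak calls: the lowest rate in any list was 12.5%, and 66.6% to 100% of TNBS peaks and 10.5% to 37.8% of normal peaks had a rate of 100%. Values are given per list, and those that rest on TNBS 1 and TNBS 3 also for TNBS 2 alone. Nothing in the labels says that the 3 mice of a group were handled separately, so spreads may be partly technical. In bulk tissue, fewer cells of a type and less RNA per cell cannot be told apart. A listed peak further depends on the abundance of the transcript and on read depth, neither of which was measured in these files.

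A peak was listed for 8.33 ± 1.15 of the 10 genes per TNBS list and for 5.67 ± 0.577 per normal list (mean ± SD, n = 3 each). The counts were 7, 9 and 9 genes in TNBS 1, 2 and 3, against 5, 6 and 6 in normal 1, 2 and 3, so that the groups did not overlap. Over all genes the share with a peak was 74.6 ± 13.0% in TNBS lists and 75.2 ± 4.05% in normal lists (SD, n = 3 each), and TNBS 2, with 59.6% of all genes, listed a peak in 90% of the 10. Of the 9 genes in TNBS 2, Car9 was in no other list and Ndrg1 rested on a single peak of 38 bases. Whether the count depends on the 2 lists with few Y-linked peaks was not tested. A larger number of TNBS than normal lists held a peak for 5 of the 10 genes, beside 21.1% of all genes, and a smaller number for 0, beside 23.9%. The 5 genes were Angptl4, Ndrg1, Car9, Bnip3 and Car12. All but Car12, 4 of the 10, had a peak in TNBS lists and no normal list (14.3% of all genes), and 0 of the 10 had one in normal lists and no TNBS list (6.07% of all genes). The numbers of lists differed by 2 or 3 towards TNBS for 2 genes, Angptl4 and Ndrg1 (6.74% of all genes), and towards normal for 0 (5.69% of all genes). Hif1a, Epas1, Vegfa, Hk2 and Egln3 had a peak in all 6 lists, as did 48.1% of all genes. Since the genes were chosen with such results known, nothing is read from these shares.

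**Figure D1:**
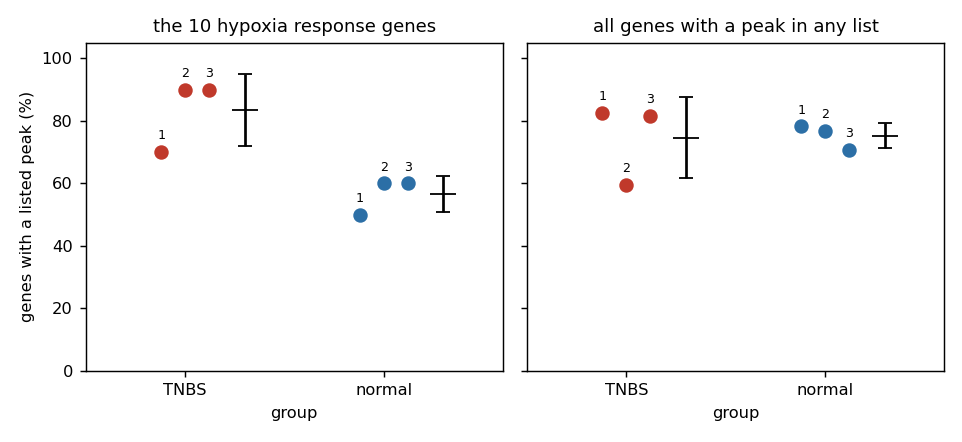
Share of genes with a listed m6A peak (%) in each TNBS list (red, numbered 1 to 3) and each normal list (blue, numbered 1 to 3), for the 10 hypoxia response genes on the left and for all 11548 genes with a peak in any list on the right. Black bars show mean ± SD (n = 3 each); TNBS 2 is the lowest list on the right and among the highest on the left.

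Peaks that shared at least 1 base across the 6 lists were merged, which gave 31 regions in the 10 genes, 57 to 2558 bases long. Of these, 7 were in all 6 lists, where 28.4% of all merged regions were. A further 17 were in at least 1 TNBS list and no normal list (26.4% of all regions), and 0 were in a normal list and no TNBS list (11% of all regions). TNBS 3 carried much of this: 11 of the 17 were in TNBS 3 alone, a pattern of 9.21% of all regions, and without TNBS 3 it was 6 of 20 regions beside 19% of all regions. Regions of 1 gene share their transcript and are not independent of each other. Of the 31, 2 were in 3 of 3 TNBS and 0 of 3 normal lists, 1 in Angptl4 and 1 in Hk2, and 0 were in 0 of 3 TNBS and 3 of 3 normal lists. The shares over all regions were 0.949% and 1.54%. Counted by number of lists, 18 regions were in more lists of TNBS than of normal colon (34.2% of all regions), 5 in fewer (28.1%) and 8 in as many.

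**Figure D2:**
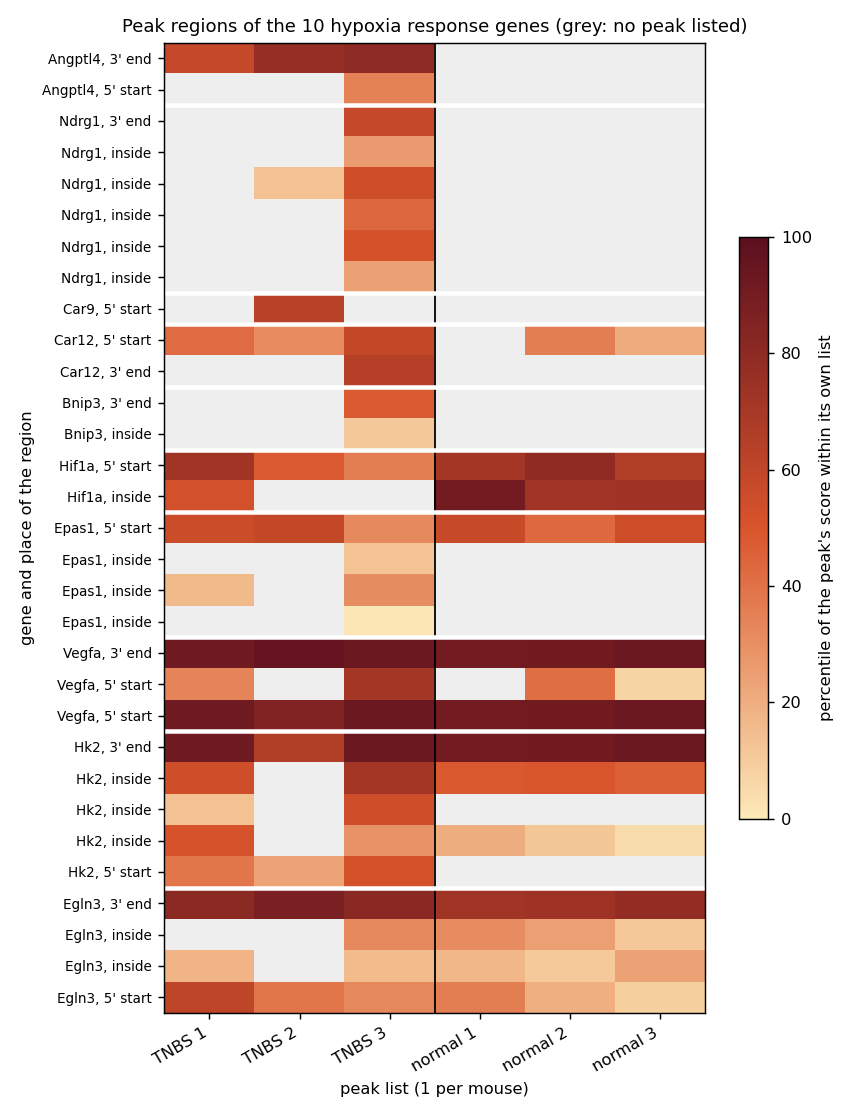
The 31 merged m6A regions of the 10 genes (rows, by gene and by place in the gene) in the 3 TNBS lists and the 3 normal lists (columns). Colour gives the percentile of the peak's score within its own list, and grey means that no peak was listed; Angptl4, Ndrg1, Car9 and Bnip3 are grey in every normal list, while Vegfa and Egln3 are dark at the 3' end in all 6.

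Hif1a and Epas1, the oxygen-regulated alpha subunits, had a peak in all 6 lists, and in both genes a region at a transcript start was common to the groups. The start region of Hif1a lay at chr12:73907867-73908324 (GRCm38, plus strand). It covers a transcript start inside the gene, which begins at 73901324 in RefSeq. The fold enrichment of this region, the authors' ratio of immunoprecipitated to input signal within 1 list, was 16.6, 6.52 and 9.62 in TNBS 1, 2 and 3. It was 20.6, 25.0 and 14.7 in normal 1, 2 and 3. By the rank of their score, a measure of the caller's p, these peaks stood at percentiles 72.6, 48.0 and 36.2 of the TNBS lists and 71.3, 79.2 and 65.3 of the normal lists. Ranks and ratios from lists of different length show no change by themselves and were not compared between groups. A second Hif1a region inside the gene, chr12:73941961-73942385, was in TNBS 1 alone of the TNBS lists and in all 3 normal lists, at a fold enrichment of 6.71 in TNBS 1, and 14.6, 11.6 and 9.04 in normal 1, 2 and 3. It is missing from TNBS 3, the longest list, and from TNBS 2, the shortest. Both of its ends were identical in the 4 lists that hold it. When 10971 peaks were taken from each list, Hif1a and Epas1 had a peak in 2 TNBS and 3 normal lists each, so their presence in every list depended on the weaker peaks of TNBS 3.

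The start region of Epas1, chr17:86753864-86754308, had the same ends in all 6 lists, with a fold enrichment of 14.3, 8.46 and 15.2 in TNBS 1, 2 and 3, and 15.2, 7.83 and 13.1 in normal 1, 2 and 3. Farther along, chr17:86818355-86818461 was listed in TNBS 1 and TNBS 3 at 5.10 and 8.99, and 2 more regions in TNBS 3 alone at 5.82 and 6.74. The normal lists and TNBS 2 held none of these 3. The last of these, chr17:86823680-86823827, stood at percentile 1.12 of its list, close to the lowest score that was listed.

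Egln3, a prolyl hydroxylase that is itself a HIF target, had a peak in all 6 lists, and each of its 4 regions was in every normal list. The strongest, at the 3' end of the gene at chr12:54178981-54180655 on the minus strand, had a fold enrichment of 17.0, 14.7 and 15.4 in TNBS 1, 2 and 3, and 14.9, 12.4 and 11.0 in normal 1, 2 and 3. The region at the transcript start, chr12:54203205-54203874, was likewise in all 6 lists, at percentiles 60.5, 38.8 and 32.1 of the TNBS lists and 35.8, 19.3 and 8.57 of the normal lists. Between them, chr12:54181631-54181704 was in TNBS 3 and the 3 normal lists, and chr12:54183880-54184016 in all but TNBS 2. Of the 12 regions of the 10 genes that were in all 3 normal lists, 5 were missing from TNBS 2, beside 31.5% of all such regions, and 4 of these 5 were present in TNBS 3.

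**Figure D3:**
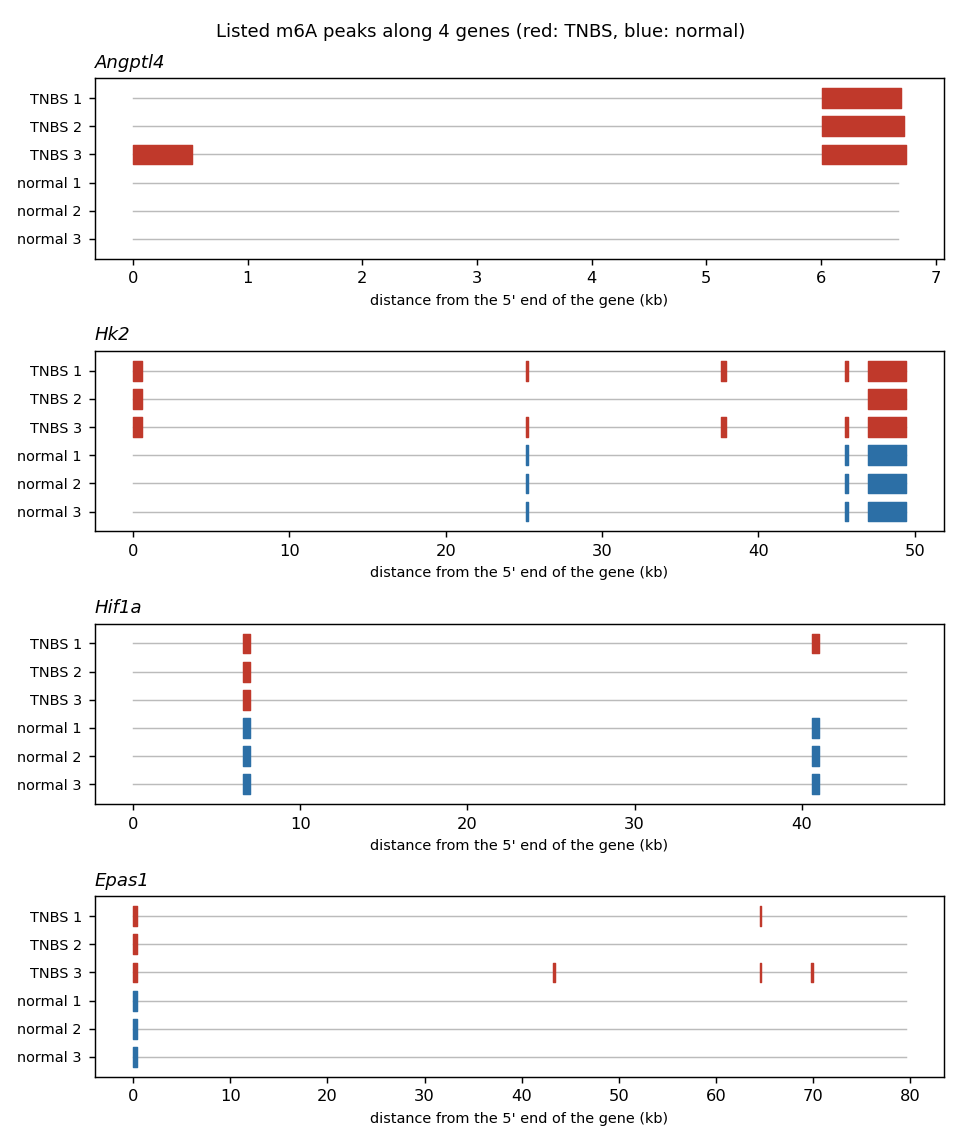
Listed m6A peaks along Angptl4, Hk2, Hif1a and Epas1, with distance from the 5' end of the gene in the gene table (kb) on the horizontal axis and 1 row per list, TNBS (red) above normal (blue). Bars are listed peaks drawn to scale with a thin outline, which makes the shortest look slightly wider; Angptl4 has bars in the 3 TNBS rows alone, and the bar at 0 kb in Hk2 is in the 3 TNBS rows and no normal row.

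Vegfa, the main growth factor of blood vessels, had some of the highest-ranking peaks among the 10 genes in every list. Its 3' end region, chr17:46017023-46018879 on the minus strand, had a fold enrichment of 59.1, 26.8 and 44.1 in TNBS 1, 2 and 3, and 34.5, 32.7 and 24.6 in normal 1, 2 and 3. The region at the first transcript start, chr17:46031291-46032377, had 25.7, 15.0 and 40.4 in TNBS 1, 2 and 3, and 30.7, 36.6 and 26.4 in normal 1, 2 and 3. Both regions were present in every list of both groups. Another region, chr17:46024444-46025163, ended exactly at a second, internal transcript start of Vegfa in the RefSeq table. It was listed in TNBS 1 and TNBS 3 at 8.04 and 19.2, and in normal 2 and normal 3 at 4.83 and 5.21, so it was absent from 1 list of each group. The 3' end peak had a score of 3100 in all 6 lists, and 8.65% to 18.8% of a list's peaks scored that or more, so their order by score at the top is set by ties.

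Hk2, the hexokinase that HIF raises in glycolysis, had a peak in all 6 lists and 1 region that followed the groups. This region, chr6:82773918-82774454 on the minus strand, ended at the transcript start and had the same ends in TNBS 1, 2 and 3, with a fold enrichment of 9.25, 5.36 and 12.1, and no peak in the normal lists. Its percentiles in TNBS 1, 2 and 3 were 38.6, 23.1 and 51.8, a middling to low rank. The peak in TNBS 2 did not reach a caller's p of 1e-10, and the peak in TNBS 1 was not among the 10971 strongest of its list, so that under either limit the region was no longer in 3 of 3 TNBS lists. The 3' end region, chr6:82725025-82727454, was in all 6 lists, at 15.5, 7.81 and 18.2 in TNBS 1, 2 and 3, and 15.8, 12.2 and 11.6 in normal 1, 2 and 3. Inside the gene, chr6:82728712-82728945 and chr6:82749189-82749337 were in every list but TNBS 2, and chr6:82736530-82736834 in TNBS 1 and TNBS 3 alone, at 4.92 and 14.4. In bases under peaks, Hk2 had 3655, 2967 and 3655 in TNBS 1, 2 and 3, and 2813 in each normal list.

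The sequence before the transcript start is shown for Hk2, because its start region followed the groups, and for Egln3, Hif1a and Vegfa, whose start regions were in all 6 lists. The 250 bases come from RefSeq (GRCm38.p6), run 5' to 3' on the strand of the gene and stop before the first transcribed base. Capitals mark ACGTG or GCGTG, the core of the hypoxia response element, on either strand, where they read CACGT or CACGC on the other strand.
Hk2, chr6:82774455-82774704, minus strand: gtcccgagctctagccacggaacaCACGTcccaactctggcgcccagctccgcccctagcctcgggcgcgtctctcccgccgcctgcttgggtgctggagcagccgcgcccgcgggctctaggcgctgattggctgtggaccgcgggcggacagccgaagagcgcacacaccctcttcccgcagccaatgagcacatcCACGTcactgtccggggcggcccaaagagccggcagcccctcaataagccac
Egln3, chr12:54203875-54204124, minus strand: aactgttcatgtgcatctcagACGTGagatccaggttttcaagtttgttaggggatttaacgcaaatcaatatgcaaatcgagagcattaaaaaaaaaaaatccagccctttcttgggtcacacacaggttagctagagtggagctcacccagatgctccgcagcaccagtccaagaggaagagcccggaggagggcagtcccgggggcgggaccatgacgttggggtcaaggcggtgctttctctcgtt
Hif1a, chr12:73907617-73907866, plus strand: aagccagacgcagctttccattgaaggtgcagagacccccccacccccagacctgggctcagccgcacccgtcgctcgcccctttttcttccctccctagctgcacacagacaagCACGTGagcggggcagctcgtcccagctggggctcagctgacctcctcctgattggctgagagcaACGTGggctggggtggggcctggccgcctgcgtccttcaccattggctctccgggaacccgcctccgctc
Vegfa, chr17:46032378-46032627, minus strand: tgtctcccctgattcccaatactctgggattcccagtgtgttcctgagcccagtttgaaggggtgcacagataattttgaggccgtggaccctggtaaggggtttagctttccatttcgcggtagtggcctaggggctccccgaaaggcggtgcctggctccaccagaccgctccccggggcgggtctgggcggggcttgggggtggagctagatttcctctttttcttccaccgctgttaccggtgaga
Hk2 held the core at 2 positions, Egln3 at 1 and Hif1a at 3, of which 2 overlap on opposite strands, and this Vegfa window held 0. Of the windows not shown, Bnip3 held 5, the second Vegfa start 2, Car9 1 and Car12 0. Bnip3 had a start peak in no list, and Car12 had one in 3 TNBS and 2 normal lists. Of all 32851 windows in the table, 38.6% held at least 1 such core. The core is common, so its presence beside a peak is a description, and its absence says only that these letters are not in this window. The promoter table had 8 windows for 7 of the 10 genes. In the first 50 transcribed bases, GGAC, a frequent form of the m6A motif, was found on the transcript strand in the windows of Hk2 and Car9 alone of the 8, against 18.9% of all windows.
These are the bases around it, with the motif in capitals.
Hk2, chr6:82774409-82774432, minus strand: tggagtctcaGGACaccacaggct
Car9, chr4:43507027-43507050, plus strand: gtgtgtcctgGGACaccccagtca
Both stretches lie inside the listed start regions of these genes, that of Hk2 in TNBS 1, 2 and 3 and that of Car9 in TNBS 2 alone. These regions cover the transcript start and so hold its first 50 bases, which fixed this overlap in advance. The rest of the start regions was not searched, so whether GGAC lies elsewhere in them is not known. With 8 windows, nothing is read from the share with GGAC. The start of Angptl4, with a region in TNBS 3 alone, had no window and was not searched.

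Angptl4, the inhibitor of lipoprotein lipase, was the 1 gene of the 10 with a peak in 3 of 3 TNBS and 0 of 3 normal lists, a pattern of 0.996% of all genes. The reverse pattern, found in 1.04% of all genes, was shown by 0 of the 10. Its main region, chr17:33774835-33775568, covered the 3' end of the gene on the minus strand, and the TNBS 1, 2 and 3 peaks all ended at 33775568 and began at 33774879, 33774851 and 33774835. They were 690, 718 and 734 bases long. Fold enrichment was 10.4, 16.7 and 28.3 and the percentile 58.0, 76.6 and 80.3 in TNBS 1, 2 and 3, above the middle of each list, and no normal list held a peak. A second region at the 5' start, chr17:33781063-33781575, was in TNBS 3 alone at 8.66. Angptl4 had the same presence with peaks limited to a p of 1e-10, to a fold enrichment of at least 4 or to the 10971 strongest per list. The same held when peaks were named by overlap with the gene table. The limits only remove peaks, so they could not have added Angptl4 to a normal list. No limit on the false discovery rate was run, and every peak of TNBS 2, that of Angptl4 included, had a rate of 100%. TNBS 2, the list with peaks in Y-linked genes, held the 3' end peak too.

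Among all genes, those whose strongest peaks had the percentiles closest to Angptl4 over the 6 lists, by Euclidean distance with 0 where no peak was listed, were Hrc, Trafd1, Mt2, Tmem109 and Eps8l3. Hrc, which binds calcium inside the muscle cell's calcium store, was nearest at a distance of 13.9, and the other 4 lay between 25.0 and 26.7. Trafd1, Mt2 and Eps8l3 each had a peak in 1 normal list as well, whereas Hrc and Tmem109 had none. On the chromosome, the protein-coding neighbour on the lower side of Angptl4 was Rab11b, 14413 bases away, which also had a peak in 3 TNBS and 0 normal lists. Kank3, the neighbour on the other side, had one in all 6.

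Car9 and Car12 are membrane carbonic anhydrases that face the outside of the cell and help it export acid, and both are HIF targets. Car9 had 1 region, at its 5' start at chr4:43506966-43507395, in TNBS 2 alone, with a fold enrichment of 9.93 at percentile 62.8. TNBS 1, TNBS 3 and the normal lists held none. Car12 had a region at a transcript start, chr9:66713686-66713933 on the plus strand, in TNBS 1, 2 and 3 at 12.8, 6.4 and 22.3. It was also in normal 2 and normal 3 at 11.6 and 5.24, so that normal 1 alone lacked it. This transcript start is inside the gene, which begins at 66712296 in RefSeq. A long region at the 3' end, chr9:66764288-66766845, was in TNBS 3 alone at 11.97.

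Ndrg1, a cytoplasmic stress protein strongly induced by hypoxia, had a peak in 2 TNBS lists and no normal list, and these 2 lists differed widely. TNBS 3 held 6 regions, covering 2397 bases, with fold enrichments from 6.17 to 17.2. TNBS 2 held a single peak of 38 bases, chr15:66938662-66938699, at a fold enrichment of 2.61 and percentile 13.5, and TNBS 1 held none. The TNBS 2 peak did not reach a caller's p of 1e-10 or a fold enrichment of 4, and under either rule Ndrg1 was in TNBS 3 alone. Bnip3, a mitochondrial protein that promotes mitophagy, had 2 regions, both in TNBS 3 alone, as were the peaks of 3.46% of all genes, at 9.57 at the 3' end of the gene and 10.8 inside it. For Ndrg1 and Bnip3, then, most or all listed peaks came from 1 mouse of the TNBS group. TNBS 2 and TNBS 3 each listed 9 of the 10 genes, TNBS 2 lacking Bnip3 and TNBS 3 lacking Car9.

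By place, 9 of the 31 regions lay within 100 bases of a transcript start, 7 within 100 bases of the 3' end of the gene and 15 inside it. The 7 regions common to all lists were 4 at starts (Hif1a, Epas1, Vegfa and Egln3) and 3 at the 3' end (Vegfa, Hk2 and Egln3), and none was inside. The 17 regions in TNBS but no normal list were 3 at starts (Hk2, Angptl4 and Car9), 4 at the 3' end (Angptl4, Ndrg1, Car12 and Bnip3) and 10 inside. The 10 inside were all in TNBS 3, and most of them were in no other list. Of the 19 regions in at least 2 lists, 12 had identical ends in every list that held them. Some of these ends are annotated ends of the gene, as at 86753864 in Epas1 and at 82725025 and 82774454 in Hk2. No share over all regions is given for these counts by place and by ends, so nothing is read from them. Exons were not located, since no transcript structure was used here, so whether a region lies in coding sequence or an untranslated part is not given.

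The other genes of the pathway were taken from 9 lists, which hold 126 further genes, 83 of them with a peak in any list. Of these 83, 20 were in more lists of TNBS than of normal colon (21.1% of all genes), 19 in fewer (23.9% of all genes) and 44 in as many. The median difference was 0 lists, as over all genes. A peak in 3 TNBS and 0 normal lists was found in 2, Gpihbp1 and Ckb (0.996% of all genes), and the reverse in 0 (1.04% of all genes). Gpihbp1, which carries lipoprotein lipase on capillary endothelium, had 1 region in TNBS 1 and TNBS 2 and another in TNBS 2 and TNBS 3. Its strongest peaks stood at percentiles 3.66, 67.6 and 2.52 in TNBS 1, 2 and 3, so it passed the listing limit narrowly in TNBS 1 and TNBS 3. Ckb, a creatine kinase that HIF regulates in gut epithelium, had chr12:111669355-111669741 in TNBS 1, 2 and 3 at fold enrichments of 19.1, 4.38 and 40.3.

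Of 18 HIF subunits, sensors and degradation factors 15 had a peak in any list and 10 of these 15 in all 6, beside 48.1% of all genes with a peak, among them Egln1, Egln2, Vhl, Cited2, Crebbp, Ep300 and Siah2. The counts per list were 15, 11 and 14 in TNBS 1, 2 and 3, and 14, 14 and 13 in normal 1, 2 and 3. Counts of this and the following lists include those of the 10 genes that belong to them, here Hif1a, Epas1 and Egln3. Of 20 glycolysis and glucose uptake genes 12 had a peak in any list, Slc2a1, Hk1, Hk2, Pfkl and Slc16a3 in all 6. The abundant enzymes Gapdh, Aldoa, Pgk1, Eno1, Pkm and Ldha had none in any list, which says nothing about their transcript level. Counts were 10, 5 and 11 in the TNBS lists and 9, 8 and 9 in the normal lists. Of 16 VEGF and vessel growth genes 15 had a peak, 13, 11 and 11 per TNBS list and 12 in each normal list, and the receptors Flt1, Kdr and Flt4 had one in all 6.

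Among carbonic anhydrases and acid transporters 8 of 19 had a peak, in counts of 6, 4 and 6 per TNBS list and 4, 5 and 5 per normal list. Car9 and Car12 are counted there, and both were in more TNBS than normal lists. The cytosolic Car2 was in TNBS 3 and the 3 normal lists, and the membrane-anchored Car4 in TNBS 1 and TNBS 3 alone. Of 25 other HIF targets, Ndrg1 and Bnip3 among them, 17 had a peak, 12, 9 and 14 per TNBS list and 13, 13 and 12 per normal list. There the transferrin receptor Tfrc had a peak in TNBS 1 and 3 normal lists and the collagen-modifying enzyme Plod2 in 0 TNBS and 2 normal lists, while Ddit4, Kdm3a, Mxi1, Bhlhe40 and Ier3 had one in all 6. Of 8 HIF-dependent barrier genes 7 had a peak, 6, 2 and 6 per TNBS list and 4, 2 and 2 per normal list, with the mucus peptide Tff3 in TNBS 1 and TNBS 3 alone.

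Of 12 angiopoietin-like and lipase genes 7 had a peak, 7, 4 and 5 per TNBS list and 5, 4 and 4 per normal list. Angptl4 is counted there, in each TNBS list and no normal list. Angptl1 and Angptl2 had one in all 6, Lpl itself in none, and the endothelial lipase Lipg in TNBS 1 and the 3 normal lists. Of 12 PPAR receptors and targets 9 had a peak, 5, 6 and 9 per TNBS list and 6 in each normal list. The receptors Ppara, Ppard and Pparg had one in all 6, the fatty acid importer Cpt1a in TNBS 3 and 3 normal lists, and the fatty acid carrier Fabp4 in TNBS 2 and TNBS 3 alone. Of 16 paralogs of the 10 genes 9 had a peak, 7, 6 and 9 per TNBS list and 6, 7 and 7 per normal list.

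**Figure D4:**
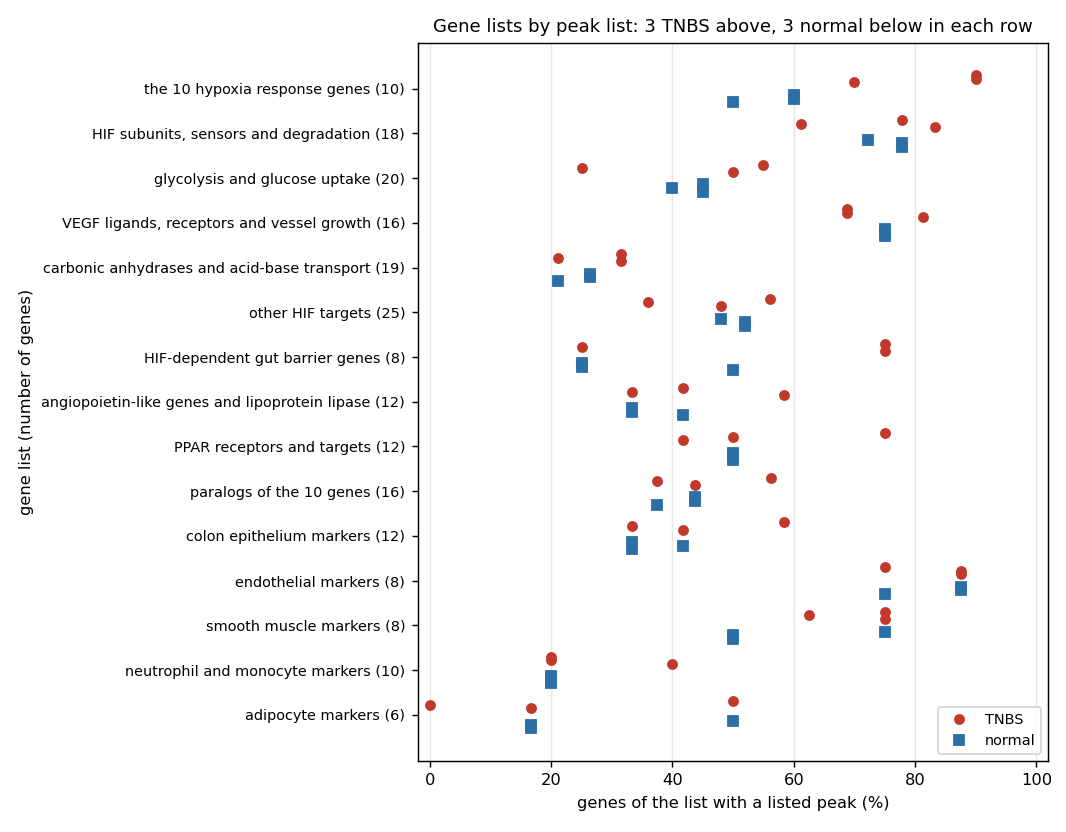
Percentage of the genes of each list with a listed m6A peak, for the 3 TNBS lists (red circles, upper part of each row) and the 3 normal lists (blue squares, lower part of each row), with the number of genes in parentheses. The 10 hypoxia response genes lie at 70% to 90% in TNBS lists and 50% to 60% in normal lists, values that the choice of these genes with earlier results known does not let be set against the other rows. The other rows also count those of the 10 genes that belong to their lists.

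Markers of the tissue were in part present. Of 12 colon epithelium markers 7 had a peak, 5, 4 and 7 per TNBS list and 4, 5 and 4 per normal list, with Krt20, Vil1, Cdx1 and Cdx2 in all 6 and Cdh1, Krt18, Car1, Slc26a3 and Muc2 in none. Endothelial markers had 7, 7 and 6 of 8 with a peak in TNBS 1, 2 and 3, and 6, 7 and 7 in the normal lists, and smooth muscle markers 6, 5 and 6 against 4, 4 and 6 of 8. The contractile gene Acta2 was in TNBS 1 and TNBS 3 alone. Of 10 neutrophil and monocyte markers 5 had a peak, 4, 2 and 2 per TNBS list and 2 in each normal list. There S100a9 was in TNBS 1 and TNBS 2 alone, Csf3r in TNBS 1 alone and Ly6g in TNBS 2 alone. Itgam and Lyz2 went the other way, in TNBS 1, TNBS 3 and the 3 normal lists. S100a8, Cxcr2, Mpo, Cd68 and Adgre1 were in none. Adipocyte markers had 1, 0 and 3 of 6 with a peak in TNBS 1, 2 and 3, and 1, 1 and 3 in the normal lists. Plin1, Lep and Retn were in none, and Adipoq was in TNBS 3 and the 3 normal lists. The part of any cell type in these results was not tested. Of 10 retina markers, included because the labels mention retinas where they describe RNA extraction, Abca4 alone had a peak, in TNBS 2.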

How the data were processed

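Peak lists of 6 mice, each made from 1 immunoprecipitated and 1 input library, were analysed. The submitters' processing notes name CASAVA 1.8, BWA and the human build hg19. Of the peaks whose gene identifier is in the RefSeq GRCm38.p6 gene table, 99.1% to 99.5% overlapped that mouse gene, so positions are read as GRCm38. Peak starts equal to an annotated gene start were far more often 1 base before it, so starts in the files count from 0 and 1 was added here. Peak names are those of the caller MACS, and its version and settings, and the read depth, are not given in the sources used here. Per the file headers, the deposited score is minus 10 times log10 of the caller's p (lowest value 50, a p of 1e-05). Per the file headers, the fold enrichment is the authors' ratio for each peak and the false discovery rate is in percent. In the deposited lists no peak had a rate under 12.5%, and the rate was 100 in 66.6% to 100% of TNBS peaks and 10.5% to 37.8% of normal peaks.

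Each list was matched to its mouse by the list's name and the sample title. Genes were taken by the name in the lists, with Elob found as Tceb2 through its identifier. The 10 genes and the gene lists were chosen with earlier results of these data known. Genes outside the 10 are named where the number of lists with a peak differs by 2 or 3 between the groups, as the genes most like Angptl4, as its neighbours on the chromosome, or as markers and pathway members given by presence alone. A further gene with such a difference is not reported here. The strand of Angptl4, Ndrg1 and Epas1 is textbook knowledge. The search for genes in all lists of 1 group and none of the other was run on simulated presence tables, and it found every planted gene. These were planted in exactly that pattern, so this checks the code alone and not missed or false peaks. Python 3.11.15, pandas 2.3.3 and numpy 2.4.6 were used. With 3 against 3 the smallest exact permutation p is 0.1.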

Additional observations from a re-analysis of the deposited data

How the results depend on the processing

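The count of genes among the 10 with a peak in a larger share of TNBS than of normal lists was 5 under each planned threshold and naming alternative. It was not stable to leaving out a library. Without TNBS 2, Car9 had no peak in any list, and without TNBS 3, Bnip3 had none. Without normal 1, Car12 had a peak in every remaining list of both groups. For TNBS 2 alone against the normal lists, an alternative chosen after seeing the data, it was 4, with Car12 in TNBS 2 and 2 of 3 normal lists. With 10971 peaks per list Hif1a and Epas1 were each in 2 TNBS and 3 normal lists, so that 2 genes were then in a smaller share of TNBS lists, against 0 as reported. The difference in genes with a peak per list, 2.67, ran from 2.33 to 3.33 over the alternatives and over the libraries left out. Angptl4 was in every TNBS and no normal list under all alternatives that were run. Leaving out a library or taking TNBS 2 alone could not have changed this, and stricter limits could only have removed peaks. Leaving out a library gave 1 to 2 genes in every TNBS and no normal list, with Ndrg1 added without TNBS 1. TNBS 2 alone gave 3, with Car9 added. Regions in every TNBS and no normal list numbered 2, against 1 at a caller's p of 1e-10 or with 10971 peaks per list, 2 to 4 with a library left out (4 without TNBS 2) and 4 for TNBS 2 alone. Regions in every normal and no TNBS list numbered 0 to 1 with a library left out, the Hif1a region inside the gene without TNBS 1 and an Egln3 region without TNBS 3, and 5 for TNBS 2 alone.

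Over all genes, those restricted to TNBS numbered 151 to 537 and those restricted to normal 145 to 347 with a library left out, the highest without TNBS 2 and without TNBS 1. TNBS 2 alone gave 510 and 1762, and 10971 peaks per list gave 210 restricted to normal. The difference in peaks per list (TNBS minus normal, 735) ran from -739.8 to 3417 and that in genes (-69.0) from -529.0 to 798.5 with a library left out, and peaks differed by -4630.3 for TNBS 2 alone. With the replicate number as a block the differences were 735 and -69.0 (exact sign-flip p = 1 for both, smallest possible 0.25), and the labels give no pairing. Read depth is unknown, so absence of a peak may be absence of coverage.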
